A study of Mus musculus with 32 samples.

Results

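Kidneys of sirolimus-treated NZB/W mice were compared at 2 ages, 36 and 42 weeks, to ask whether the expression pattern of nephritis came back with time in treated animals. The comparison rested on 12 of the 32 arrays of the series, which are 6 of its 16 mice: 3 mice at each age, each hybridised to 2 Affymetrix arrays (Mu11KsubA and Mu11KsubB) that together made 1 replicate. All mice were females of the NZB x NZW F1 cross, which develops lupus nephritis spontaneously, and the other groups were 4 untreated asymptomatic mice labelled 12 weeks and 6 untreated diseased mice, 3 at 36 and 3 at 42 weeks. According to the study's methods, mice with early fixed proteinuria were assigned to sirolimus or to no treatment, the drug was given for a limited course at different doses, and kidneys were taken after the course. The labels describe the treated mice as free of symptoms and on treatment, and give neither the dose of a mouse nor the time since its last dose, so age, dose and time off the drug cannot be told apart. No mouse was sampled at both ages.

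Lupus nephritis begins when autoantibody complexes lodge in the glomeruli, where they activate complement and draw in macrophages and lymphocytes, and the tubules are then injured and lose their transport and metabolic functions. Sirolimus (rapamycin) binds the immunophilin FKBP12, and this complex inhibits mTOR, a kinase that couples growth signals to protein synthesis and to the proliferation of T and B cells. In whole kidney, a falling signal of a cell type's genes can mean fewer cells or less RNA per cell, and these cannot be told apart.

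The 6 treated kidneys were alike in quality. Each array had been scaled to the same trimmed mean of 100, its median signal was 44.2 to 49.5 on the first array type and 35.7 to 41.0 on the second, and the ratio of 5' to 3' signal was 0.641 to 0.964 for actin. Mouse 3 of the 42-week group was the least like the others, with a mean correlation of 0.904 over probe sets with the other treated mice against 0.916 to 0.920 for the rest. Kidney markers were strongly expressed: the summed signal of 27 proximal tubule markers was 37000 to 38900 at 36 weeks and 36300 to 42600 at 42 weeks, against 39800 to 41600 in asymptomatic mice. Results are MAS5 signals, and differences are log2 differences of group means with the standard error of a limma fit over the 5 groups (3 mice an age unless stated). A probe set was called at a Benjamini-Hochberg adjusted p under 0.05 and a fold over 1.5. Nothing states whether mice of a group shared a cage or a litter, so the p-values measure the spread between these mice.

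No probe set passed the test between 42 and 36 weeks of age in treated mice. Of 7989 probe sets tested, 0 (0%) were called by limma, and the analysis of variance named in the study's methods also called 0. At an unadjusted p under 0.05 there were 376, of which 194 (2.43%) were higher and 182 (2.28%) were lower at 42 weeks, and the smallest adjusted p was 0.21. The signals of the 3 older and the 3 younger mice did not overlap at 403 probe sets (5.04%) with higher and 312 (3.91%) with lower values at 42 weeks. The median half-width of the 95% confidence interval was 0.54 on the log2 scale, a 1.45-fold change. Smaller changes at a typical probe set were thus not detectable with 3 mice an age. That interval is not adjusted for the number of probe sets tested, whereas calls were, so larger changes could also be missed. Even a difference of -2.45, at Mrc1, did not pass. In diseased mice the same comparison of ages also called 0 (0%) in limma and in the analysis of variance, with 503 at an unadjusted p under 0.05. The difference between the age effects of treated and diseased mice, tested as an interaction, called 0 (0%) in both, with 460 at an unadjusted p under 0.05. The calls depended little on 1 mouse: leaving out each treated mouse in turn gave 0 or 1 called probe set, the 1 appearing without 36-week mouse 1 or without 42-week mouse 2. Leaving out diseased mouse 2 of 42 weeks raised the count in diseased mice from 0 to 34.

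**Figure D1:**
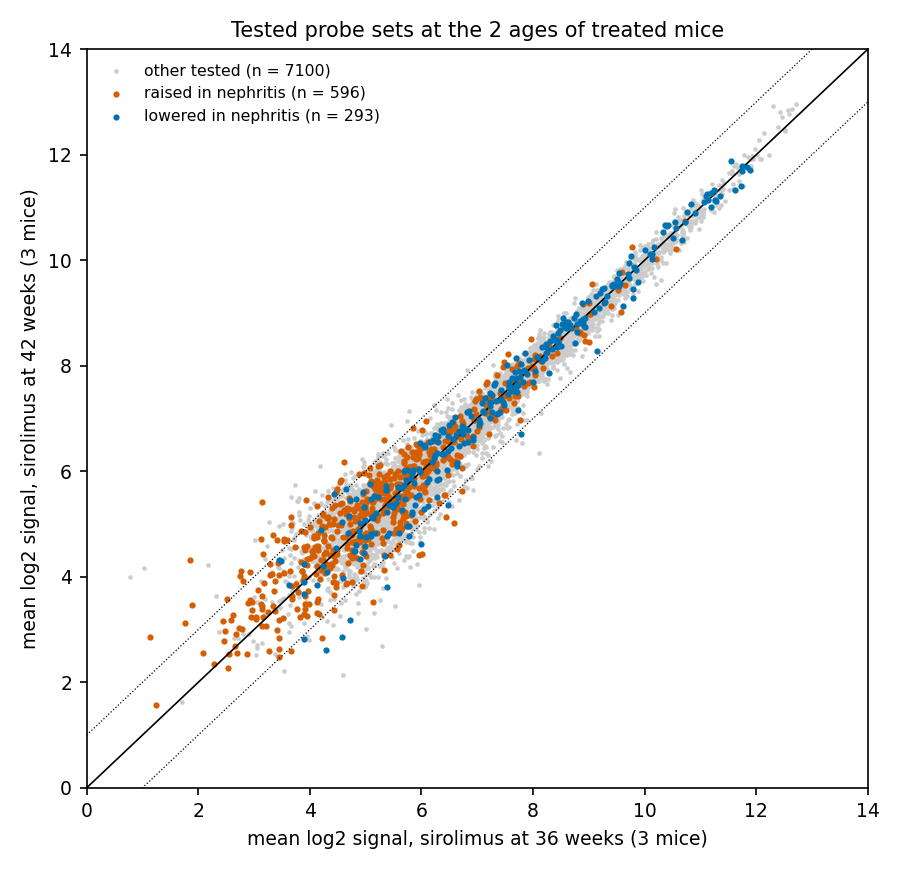
Mean log2 signal of each of 7989 tested probe sets in 3 sirolimus-treated mice at 36 weeks (x axis) and 3 at 42 weeks (y axis), with probe sets raised (orange, n = 596) or lowered (blue, n = 293) in nephritis; the solid line marks equality and the dotted lines a log2 difference of 1. Both nephritis groups lie along the line of equality, and scatter is widest at low signals.

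Genes that mark nephritis stood between the asymptomatic and the diseased level at both ages, and the ages overlapped. They were chosen without any treated mouse, as probe sets that differed at least 2-fold between the 6 diseased and the 4 asymptomatic mice: 596 (7.46% of those tested) were raised and 293 (3.67%) were lowered in disease. Each treated mouse was then placed on a scale from 0%, the asymptomatic mean, to 100%, the mean of the diseased mice, by its mean log2 difference over the probe sets. For the raised probe sets, the 36-week mice stood at 48.3%, 17.8% and 19.8% and the 42-week mice at 40.9%, 39.6% and 21.2%. The ages overlapped, with means of 28.6% ± 17 and 33.9% ± 11 (SD, n = 3 each), and every diseased mouse was higher, from 79.9% to 119%. Without mouse 1 the mean at 36 weeks was 18.8%, and with signals below 50 raised to 50 the means were 15.2% and 17.3%. For the lowered probe sets, the 36-week mice stood at 38.4%, 39.0% and 31.8% of the disease change and the 42-week mice at 35.2%, 43.2% and 37.4%. These also overlapped (36.4% ± 4.00 and 38.6% ± 4.17), and the diseased mice ranged from 69.1% to 127%. The asymptomatic and diseased mice that set the 0% and 100% points also served to choose the probe sets. That choice favours a wide gap between these points, so the place of treated mice between them is a description and no test. The difference between the 2 treated ages shares no mouse with that choice.

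The same holds probe set by probe set. At 42 against 36 weeks, 357 of the 596 raised probe sets (59.9%) had the higher mean at 42 weeks, beside 53.0% of all probe sets tested, and the median difference was 0.10, beside 0.02 over all. The ages did not overlap at 30 of them with higher values (5.03%) and 21 with lower values (3.52%) at 42 weeks, shares close to the 5.04% and 3.91% of all probe sets. Of the 293 lowered probe sets, 156 (53.2%) had the higher mean at 42 weeks. For 551 of the 596 (92.4%) and 264 of the 293 (90.1%), the 95% interval of the age difference lay short of the full disease change. It lay short of 50% of that change for 269 (45.1%) and 156 (53.2%), which does not exclude a smaller return at these. At the rest, a return of 50% was not excluded either. The mice that chose the probe sets also set the disease change. That choice favours a large change, so intervals fall short of it more easily. The 36-week mice already stood at a mean of 28.6% of the disease change for raised and 36.4% for lowered probe sets. A return to the diseased level would need less than the full change, so an interval short of the full change does not exclude it.

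**Figure D2:**
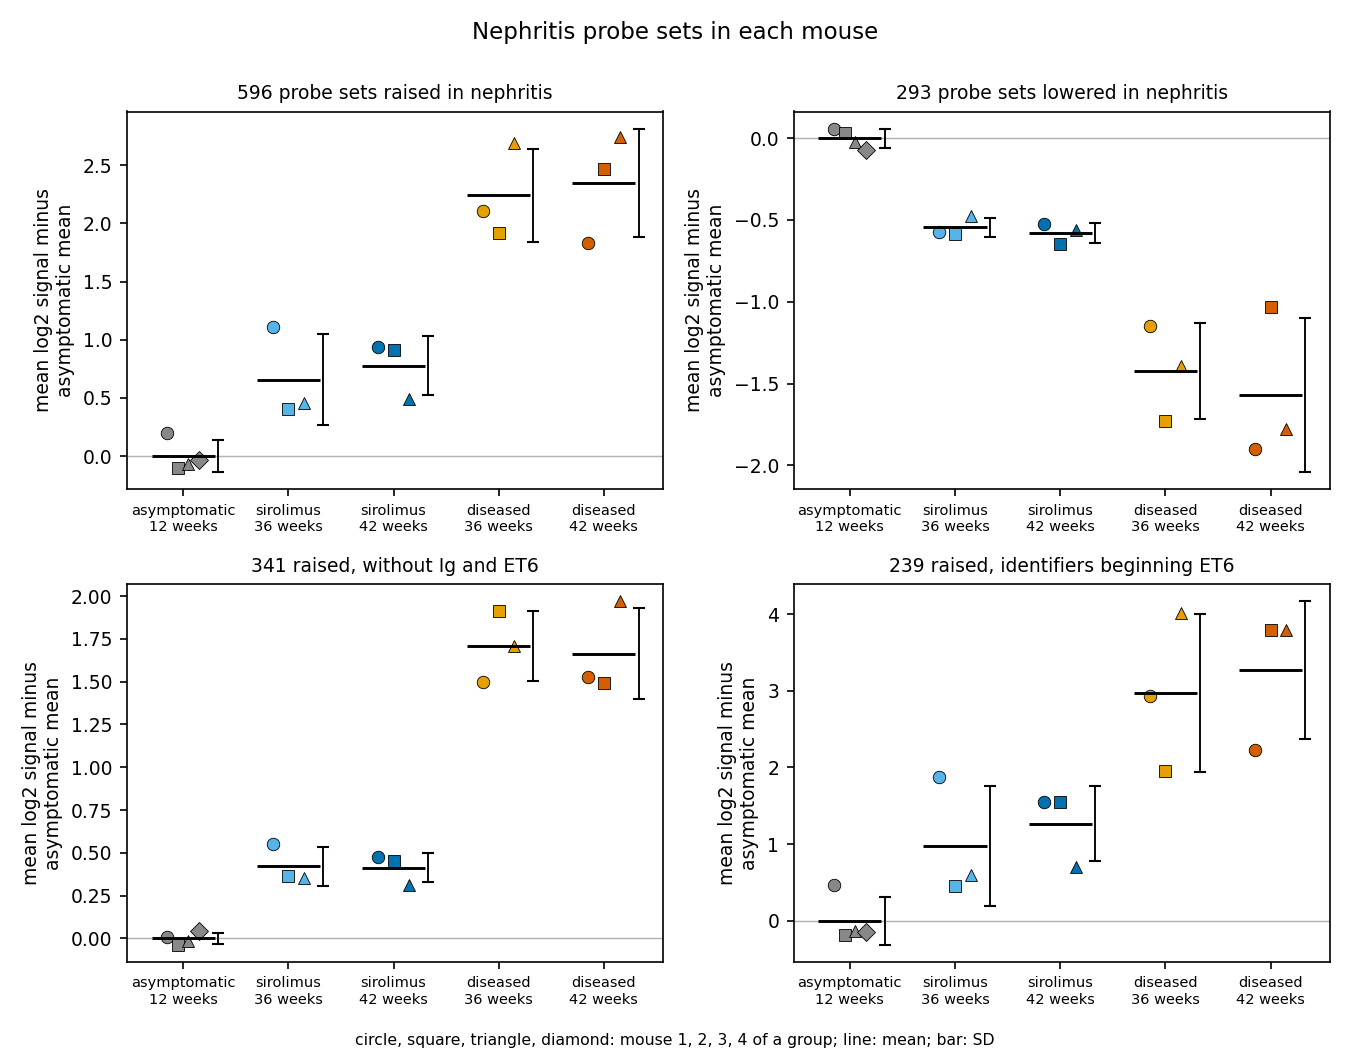
Mean log2 signal over 4 groups of nephritis probe sets in each of 16 mice, relative to the asymptomatic mean (y axis), by group and age (x axis); symbols are mice, lines are means and bars are SD. Treated mice of both ages lie between the asymptomatic and the diseased mice and overlap each other, and the spread among treated mice is widest for probe sets with identifiers beginning ET6.

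Among the probe sets raised in nephritis, the spread between treated mice lay mostly in immunoglobulin genes and in a block of unnamed probe sets. Of the raised probe sets, 239 have identifiers that begin with ET6, all on the second array and none with a gene name in the annotation used here. They stood at 60%, 14.7% and 19% of the disease change at 36 weeks and at 49.6%, 49.5% and 22.4% at 42 weeks. Thus 1 mouse of the younger age and 2 of the older were high, and the groups overlapped. Of these 239, 176 (73.6%) had the higher mean at 42 weeks. The annotation used here names 19 tested probe sets as immunoglobulin genes, which report antibody-producing cells. Probe sets without a gene name could not be assigned to them, and whether those beginning ET6 also measure immunoglobulin transcripts was not tested. The study's paper reports many more than 19 immunoglobulin probe sets raised in disease. The 19 had mean log2 differences from asymptomatic mice of 1.27, 0.55 and 0.58 at 36 weeks and 1.45, 1.07 and 0.89 at 42 weeks. Their means, 0.80 ± 0.41 and 1.14 ± 0.29, overlapped, and diseased mice ranged from 1.46 to 3.18. Of the 19, 15 (78.9%) had the higher mean at 42 weeks, and 0 were called. Without both of these groups, the remaining 341 raised probe sets stood at 32.7%, 21.5% and 20.8% at 36 weeks and 28.3%, 26.8% and 18.7% at 42 weeks, and 169 (49.6%) had the higher mean at 42 weeks.

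Ighm, the heavy chain of IgM, had signals of 531, 194 and 152 at 36 weeks and 675, 370 and 192 at 42 weeks. Igha, the heavy chain of IgA, had 335, 178 and 112 and then 451, 283 and 212. Jchain, which joins IgM and IgA into polymers, had 185, 80.6 and 62.1 and then 211, 129 and 58.1. All 3 had geometric means in diseased mice, 1140, 864 and 381, that exceeded every treated mouse, and mouse 1 was the highest of its age for each. The age differences were 0.54 ± 0.58 for Ighm, 0.67 ± 0.44 for Igha and 0.26 ± 0.61 for Jchain (adjusted p = 0.999 each, limma).

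The array identifiers in the labels fall into blocks of neighbouring numbers. Within the blocks of the second array that held both ages, the raised nephritis probe sets differed by 0.25 (36-week mice n = 2, 42-week mouse n = 1) and 0.41 (n = 1 and n = 2), higher at 42 weeks. On the first array, the 1 block holding 2 mice of each age gave 0.00283. The 2 arrays carry different probe sets, with 216 of the raised ones on the first and 380 on the second. Those beginning ET6 are on the second array only, where all 364 tested differed by 0.28 and 0.40 in the same 2 blocks. In that block of the first array, the 8 immunoglobulin probe sets differed by 0.67. No source used here says what the array identifiers stand for.

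Complement genes, whose products are deposited with immune complexes, were below the diseased level at both ages. The mean over the list relative to asymptomatic mice was -0.25 to -0.03 at 36 weeks and -0.58 to -0.12 at 42 weeks, beside 0.615 to 1.14 in diseased mice. C3, the central component, had signals of 171, 111 and 111 at 36 weeks and 113, 92.0 and 123 at 42 weeks, against a geometric mean of 155 in asymptomatic mice and 602 to 2170 in diseased mice. The ages overlapped (-0.24 ± 0.45, adjusted p = 0.999). C1qa, a chain of the recognition molecule C1q that macrophages make, had 72.3, 37.1 and 14.3 and then 27.3, 67.2 and 16.3, and all 6 values lay below the 191 to 754 of diseased mice. Only the highest mouse of 36 weeks reached the asymptomatic range of 68.2 to 76.1, and the differences from asymptomatic mice were -1.10 ± 0.57 and -1.22 ± 0.57 (adjusted p = 0.274 and 0.193). C1qb differed by 0.26 ± 0.34 and C1qc by -0.04 ± 0.32. Of 15 measured complement genes, 5 had the higher mean at 42 weeks, and the median difference was -0.12, beside 0.01 over 4229 named genes. The direction of such list medians was often not stable: for 25 of the 35 gene lists described here the median turned or became 0 under at least 1 of 10 other settings, this list among them. Cfi, the protease that inactivates C3b and C4b, was the member whose ages did not overlap with lower values at 42 weeks, at 49.7, 49.0 and 48.6 and then 26.3, 39.6 and 33.6 (-0.59 ± 0.36, adjusted p = 0.999).

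Antigen presentation genes behaved likewise. Cd74, which chaperones class II molecules, had 547, 413 and 483 at 36 weeks and 545, 661 and 535 at 42 weeks, beside 2700 as the geometric mean of diseased mice and 609 of asymptomatic mice. Of 11 class II genes measured, 10 had the higher mean at 42 weeks, with a median of 0.24, and this count was 8 to 11 under the 10 other settings tried. The values remained far from disease: the mean of the list relative to asymptomatic mice was -0.41 to -0.27 at 36 weeks and -0.34 to 0.05 at 42 weeks, and 0.63 to 1.61 in diseased mice. H2-DMa, which loads peptides on class II molecules, had 25.6, 32.4 and 33.4 and then 29.8, 42.6 and 36.0, with overlapping ages, against 196 to 297 in disease. Of 14 class I genes, 7 had the higher mean at 42 weeks. Psmb8, an immunoproteasome subunit, had 96.9, 67.5 and 53.8 and then 67.5, 46.7 and 26.7 (-0.69 ± 0.34, adjusted p = 0.999).

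Macrophage markers showed no common shift, and 1 of them stood apart. Of 22 measured, 11 had the higher mean at 42 weeks and the median difference was -0.01. Mrc1, the mannose receptor of tissue macrophages, had signals of 25.4, 16.9 and 33 at 36 weeks and of 4.56, 5.31 and 3.59 at 42 weeks. The ages did not overlap, and its p was the smallest of all tested (-2.45 ± 0.40, adjusted p = 0.21, limma), yet it did not pass. Its geometric mean was 28.7 in asymptomatic and 51.8 in diseased mice, and at 42 weeks it was called lower than both (adjusted p = 0.00461 and 0.00158). All of its signals in treated mice lie below 50, the minimum used in the filter, and Mrc1 falls outside the rule for named genes except as a member of its list. Ctss, a lysosomal protease, had 60.1, 34.3 and 24.7 and then 45.2, 71.9 and 57.1 (0.62 ± 0.38, adjusted p = 0.999), while its other probe sets differed by 0.13 and -0.74.

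Interferon-stimulated genes and the JAK-STAT pathway, which carries cytokine signals, also overlapped between ages. Of 20 interferon-stimulated genes, 7 had the higher mean at 42 weeks (median -0.14). Irf1, a transcription factor induced by interferon, had 158, 119 and 171 and then 129, 91.8 and 97.8 (-0.49 ± 0.20, adjusted p = 0.999). Usp18, a negative regulator of interferon signalling, had 13.2, 11.3 and 33.5 and then 22.3, 37.4 and 46.4 (0.98 ± 0.35, adjusted p = 0.999), so the members with the smallest p pointed in opposite directions. Of 22 JAK-STAT genes, 13 had the higher mean at 42 weeks (median 0.05). Stat3 had 148, 202 and 197 and then 191, 199 and 224, against a geometric mean of 590 in diseased mice. Socs3, a feedback inhibitor of this pathway, had 7.68, 19.6 and 6.21 and then 11.4, 11.5 and 51.2 (0.95 ± 0.53, adjusted p = 0.999), and mouse 2 of 36 weeks and mouse 3 of 42 weeks lay above the asymptomatic range of 9.26 to 15.1.

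The means of the chemokine and cytokine list and of the tubular injury list remained below the diseased range. Relative to asymptomatic mice, the chemokine and cytokine list was nevertheless above 0 in every treated mouse. It was 0.07 to 0.57 at 36 weeks and 0.28 to 0.50 at 42 weeks, beside 0.985 to 2.24 in diseased mice. Of 15 chemokine and cytokine genes, 10 had the higher mean at 42 weeks (median 0.16), which became 5 with signals below 50 raised to 50. Lcn2, a secreted marker of tubular injury, had the largest rise in disease of the named genes, with signals of 110 to 2880 in diseased mice and a geometric mean of 6.91 in asymptomatic mice. Treated mice had 15.3, 10.6 and 12.8 at 36 weeks and 19.3, 10 and 8.94 at 42 weeks, with overlapping ages and a 95% interval of the difference from -2.12 to 1.94, and its other probe set differed by 0.33. Ccl5, a chemokine for T cells, had 7.97, 4.19 and 4.87 and then 9.55, 8.50 and 8.82. Its ages did not overlap, and no treated mouse exceeded the asymptomatic range of 4.57 to 9.95. Ccl9 had 14.8, 4.46 and 4.35 and then 20.2, 7.08 and 3.75, mouse 1 of each age being the highest. Atf3, a stress-induced transcription factor, had 6.88, 39.8 and 26.4 and then 27.8, 30.1 and 35.4 (0.68 ± 0.56), above the asymptomatic range of 3.42 to 9.93 in all but 1 mouse. Of 23 tubular injury genes, 10 had the higher mean at 42 weeks (median -0.06). Vcam1, an adhesion molecule, had 39.1, 34.3 and 29.1 and then 44.4, 60.5 and 60.7, without overlap, and 329 as the geometric mean of diseased mice (0.69 ± 0.38, adjusted p = 0.999).

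**Figure D3:**
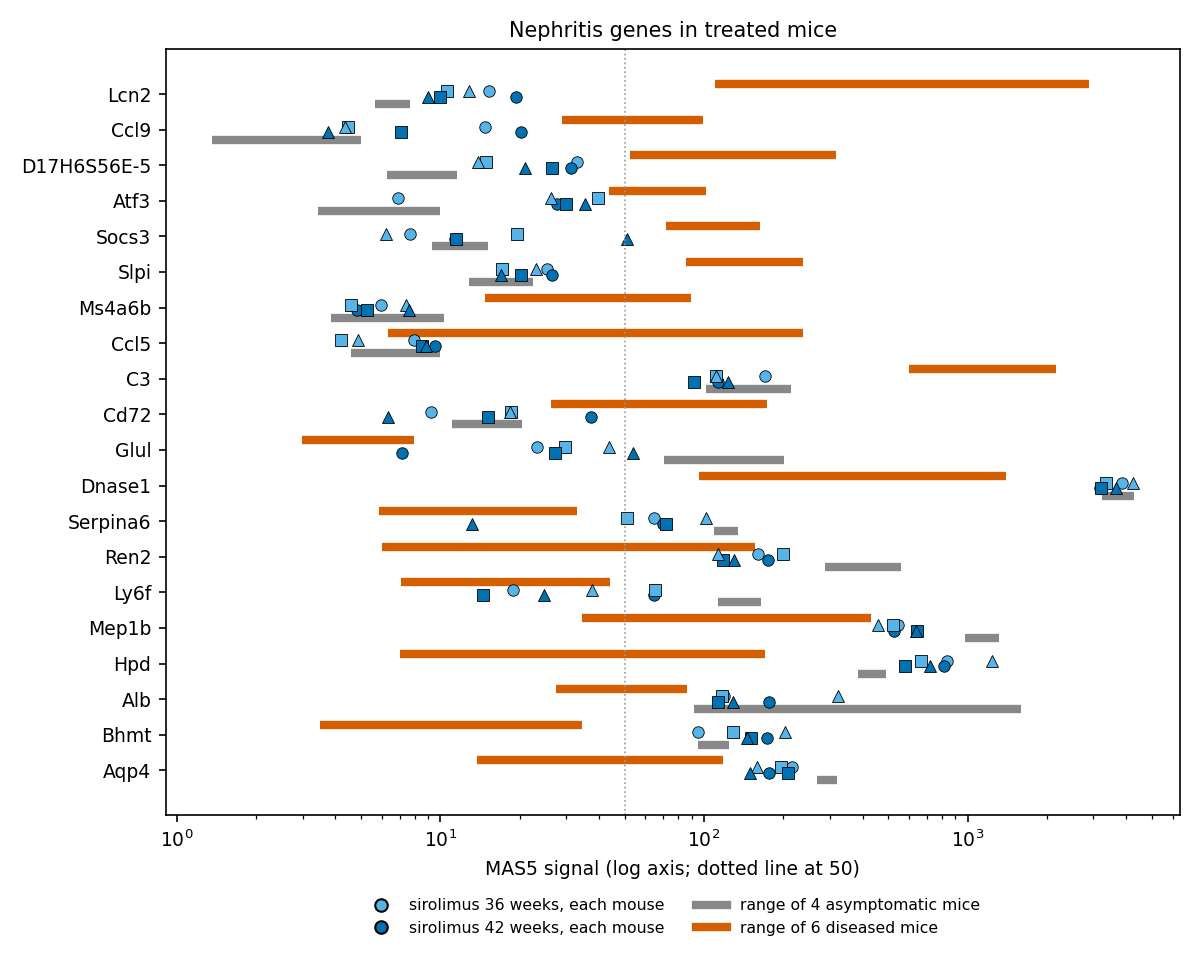
MAS5 signal (log x axis) of the 10 named genes with the largest rise and the 10 with the largest fall in nephritis, in each treated mouse at 36 weeks (light blue) and 42 weeks (dark blue); grey and orange bars span the 4 asymptomatic and the 6 diseased mice, and symbols mark mouse 1 (circle), 2 (square) and 3 (triangle). Symbols of both ages intermingle for most genes, and C3 and Dnase1 overlap the asymptomatic range.

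Several tubular genes that fall in nephritis stayed above the diseased range at both ages. Dnase1, an endonuclease the tubule secretes, had 3840, 3360 and 4260 at 36 weeks and 3180, 3210 and 3660 at 42 weeks. The asymptomatic range was 3230 to 4270 and the diseased range 95.6 to 1400, and the ages overlapped (-0.19 ± 0.80), although 1 of its 2 other probe sets differed in the opposite direction. Hpd, a tyrosine-degrading enzyme, had 839, 667 and 1240 and then 815, 580 and 722, all above the asymptomatic range of 384 to 492. Bhmt, which remethylates homocysteine, had 94.9, 129 and 203 and then 174, 151 and 146, with 1 mouse below the asymptomatic range of 95.3 to 125 and the others above it. Other genes stayed part-way. Mep1b, a brush border protease, had 543, 521 and 457 and then 526, 644 and 637, between the diseased maximum of 430 and the asymptomatic minimum of 978. Ren2, a renin gene, had 161, 200 and 113 and then 175, 118 and 130, against 288 to 561 in asymptomatic mice, and 1 mouse of 36 weeks and 2 of 42 weeks lay within the diseased range of 6.02 to 156. Glul, glutamine synthetase, had 23.3, 29.8 and 43.7 and then 7.18, 27.2 and 53.7, all below the asymptomatic minimum of 70.7, with the lowest and the highest value both at 42 weeks. Serpina6, a steroid-binding globulin, had 64.7, 50.9 and 102 and then 69.9, 72.1 and 13.2, and mouse 3 of 42 weeks alone was within the diseased range of 5.83 to 33.1.

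The means of the proximal tubule list and of the loop and distal tubule list also lay above the diseased range at both ages. Of 27 proximal tubule genes, 19 had the higher mean at 42 weeks, with a median of 0.14. Enpep, a brush border peptidase, had 834, 859 and 929 and then 1130, 1110 and 992, without overlap (0.30 ± 0.23, adjusted p = 0.999). Cubn, an endocytic receptor for filtered protein, had 800, 859 and 858 and then 910, 990 and 1080, also without overlap (0.24 ± 0.27). Of 9 loop and distal tubule genes, 8 had the higher mean at 42 weeks, with a median of 0.16. The mean of this list relative to asymptomatic mice was -0.26 to -0.065 at 36 weeks and 0.0113 to 0.094 at 42 weeks. The ages thus did not overlap in it, a separation that was not tested, and diseased mice had -1.64 to -0.467. Slc8a1, a sodium-calcium exchanger, had 162, 131 and 189 and then 226, 248 and 224 (0.55 ± 0.25, adjusted p = 0.999), and Slc12a1, the sodium-potassium-chloride cotransporter, had 1650, 1400 and 1920 and then 1920, 2180 and 2020. Both medians stayed above 0 in the 10 other settings tried, but with the array identifier as a block that of the proximal tubule list was 0.0134. In both lists 0 members were called.

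The pathway that sirolimus targets showed no called gene. Of 21 measured mTOR and rapamycin-binding genes, 16 had the higher mean at 42 weeks, with a median of 0.13. Fkbp3, a rapamycin-binding immunophilin, had 198, 38.3 and 192 at 36 weeks and 275, 226 and 232 at 42 weeks (1.11 ± 0.45, adjusted p = 0.999), a difference that rests on the low value of 36-week mouse 2. Fkbp8 had 160, 306 and 140 and then 112, 135 and 138, with the same mouse the highest. Pik3r1, a regulatory subunit of PI3-kinase upstream of mTOR, had 30.2, 10.8 and 10.9 and then 33, 23.2 and 28.1 (0.87 ± 0.42, adjusted p = 0.999). Ribosomal proteins, whose translation mTOR promotes, had the higher mean at 42 weeks for 4 of 35 genes (median -0.18). Genes of the electron transport chain did so for 7 of 32 (median -0.12). Without 36-week mouse 2 these counts were 13 and 16 and the medians -0.06 and -0.01, so both shifts rested mainly on that mouse. Of 25 cell cycle genes, 16 had the higher mean at 42 weeks, and the median of 0.16 became 0 with signals below 50 raised to 50. Mki67, a marker of dividing cells, had 29.7, 25.4 and 37.4 and then 45.7, 41.1 and 41.3, without overlap (0.49 ± 0.31, adjusted p = 0.999).

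**Figure D4:**
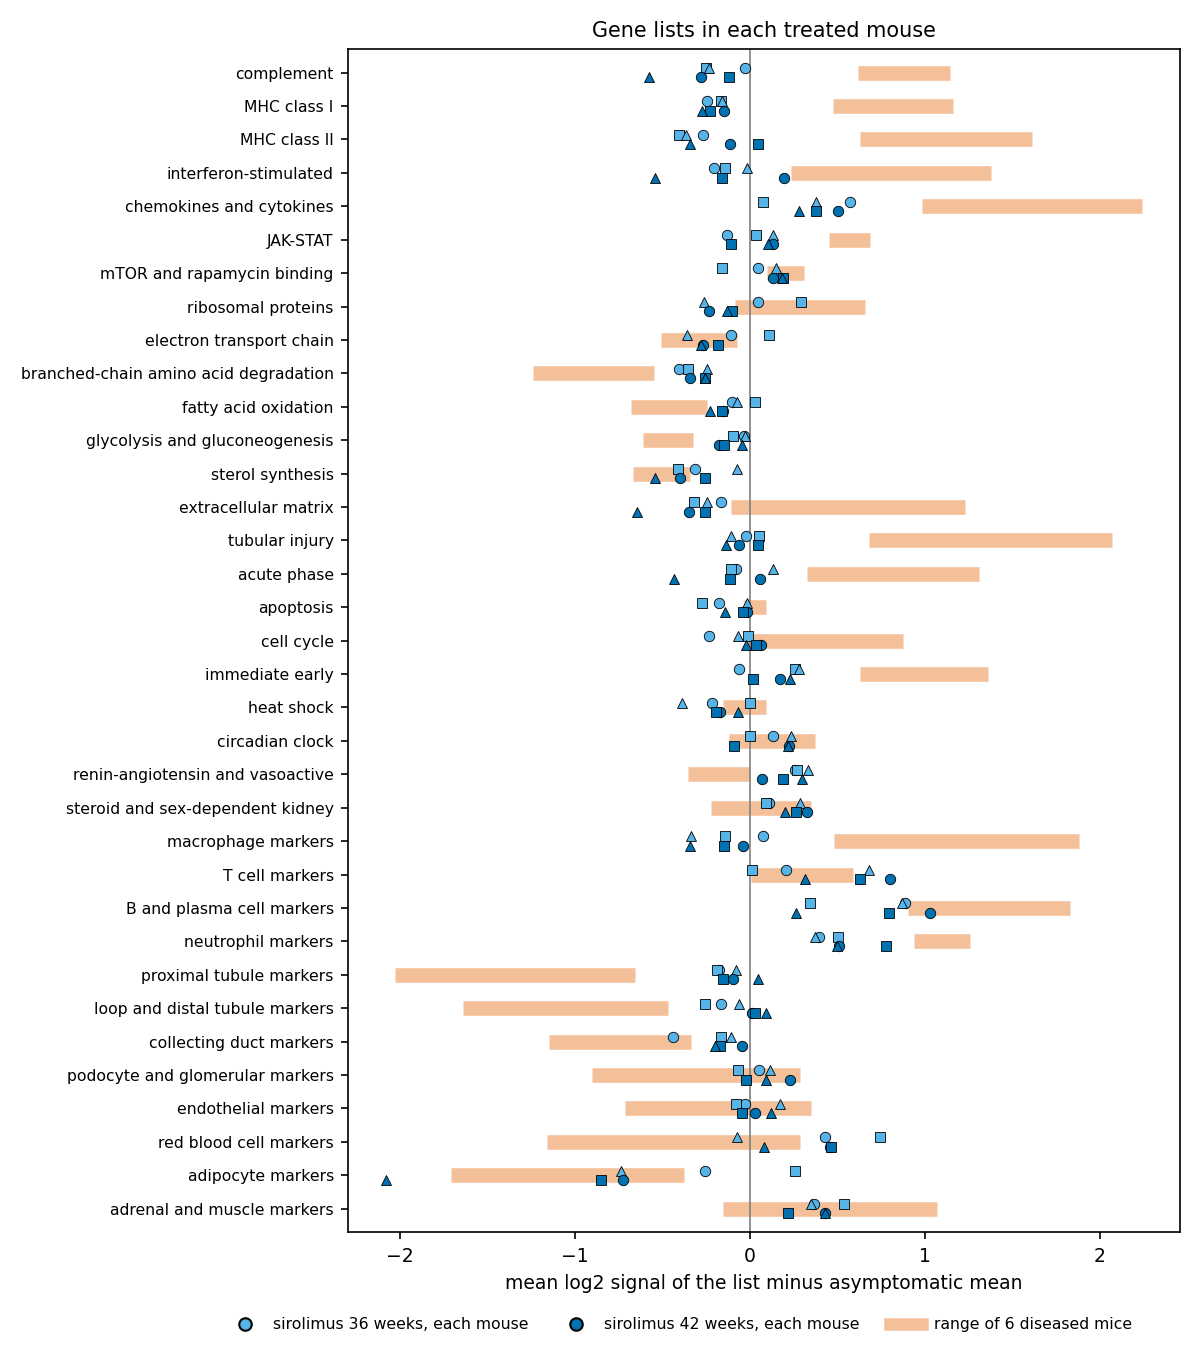
Mean log2 signal of the measured members of 35 gene lists in each treated mouse, relative to the asymptomatic mean (x axis), at 36 weeks (light blue) and 42 weeks (dark blue), with mouse 1 as circle, 2 as square and 3 as triangle; orange bars span the 6 diseased mice. Complement, MHC, macrophage and tubular injury lists lie outside the diseased range in all 6 treated mice. T cell markers lie within or above that range, and adipocyte markers are lowest in 42-week mouse 3.

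Genes with the smallest unadjusted p at 42 against 36 weeks are given as values, since none passed. They were taken from genes whose ages did not overlap and whose mean signal reached 50 in 1 age. Fasn, fatty acid synthase, had 526, 596 and 575 at 36 weeks and 303, 339 and 297 at 42 weeks. All 3 younger mice lay within the asymptomatic range of 441 to 642, while the older mice lay between it and the diseased range of 210 to 275 (-0.85 ± 0.16, adjusted p = 0.252). Of 17 alternatives, Fasn was called only when signals below 50 were raised to 50. Its adjusted p over these alternatives, which are limma fits and the analysis of variance, ranged from 0.0386 to 0.735. Dctpp1, a nucleotide pyrophosphatase, had 67.3, 67.4 and 62.8 and then 36.7, 38.9 and 43.2 (-0.74 ± 0.17, adjusted p = 0.395). Ifitm10 had 103, 172 and 166 and then 78.6, 74.5 and 93.7 (-0.81 ± 0.23, adjusted p = 0.634). In the opposite direction, Csnk2a1, a catalytic subunit of casein kinase 2, had 62.6, 86.8 and 66.2 and then 140, 106 and 144 (0.85 ± 0.20, adjusted p = 0.395), but its other probe set differed the other way. Skap2, an adaptor protein of immune cells, had 153, 159 and 170 and then 214, 223 and 229 (0.47 ± 0.13, adjusted p = 0.629). Nppc, the C-type natriuretic peptide, had 39.3, 34.7 and 20.7 and then 87.5, 65.3 and 75.8 (1.31 ± 0.33, adjusted p = 0.485). Mapk14, the p38 stress kinase, had 54.1, 32.9 and 37.9 and then 100, 80.1 and 64.3 (0.98 ± 0.29, adjusted p = 0.706). The other genes that the rule named, Zscan21, Nudt5, Baz2b, Eif3e, Atf6 and Pisd with higher and Gnb3, Gtf2f1, Shkbp1, Pde6g, Lmbr1l, Mlph and Sorbs3 with lower values at 42 weeks, had adjusted p-values from 0.395 to 0.748.

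**Figure D5:**
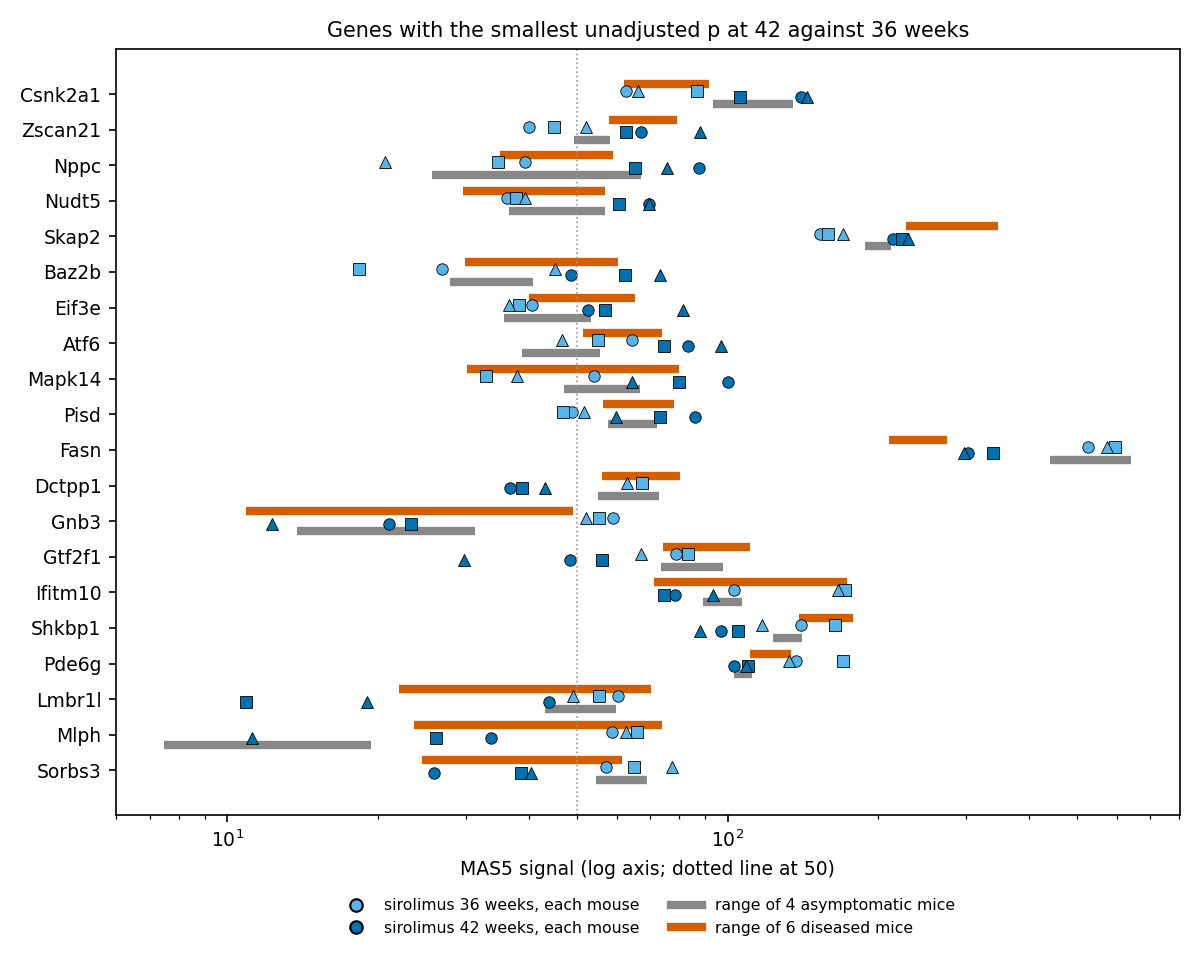
MAS5 signal (log x axis) of the 20 named genes with the smallest unadjusted p at 42 against 36 weeks in treated mice, 10 higher and then 10 lower at 42 weeks; light and dark blue symbols are single mice at 36 and 42 weeks (circle, square and triangle for mouse 1, 2 and 3), and grey and orange bars span asymptomatic and diseased mice. The ages do not overlap for any gene, as the rule required, and none passed the adjusted threshold.

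Matrix genes differed in both directions without passing. Lama1, a laminin chain of tubular basement membrane, had 43.3, 30.9 and 51.7 and then 20.9, 21.1 and 26.5 (-0.85 ± 0.22). Col15a1 had 38.9, 32.5 and 50.5 and then 28.6, 12.9 and 7.08 (-1.54 ± 0.41). Col4a1, a basement membrane collagen, had 88.1, 128 and 101 and then 194, 166 and 138 (0.65 ± 0.28), whereas its geometric mean in diseased mice was 501 at 36 and 297 at 42 weeks. The extracellular matrix list had no common direction, with 13 of 32 genes higher at 42 weeks.

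Metabolic and stress lists were mixed. Genes of branched-chain amino acid degradation, a mitochondrial pathway active in the tubule, had the higher mean at 42 weeks for 9 of 16 (median 0.05). Bckdha, a subunit of its rate-limiting complex, had 321, 352 and 320 and then 292, 411 and 383, above the geometric mean of 181 in diseased mice in every treated mouse. Fatty acid oxidation genes were higher at 42 weeks for 9 of 26 (median -0.06), glycolysis and gluconeogenesis for 8 of 16 (median -0.01) and sterol synthesis for 5 of 10 (median -0.06). The mean of the fatty acid oxidation list relative to asymptomatic mice was -0.105 to 0.0288 at 36 weeks and -0.231 to -0.157 at 42 weeks. These did not overlap, and diseased mice had -0.68 to -0.244. Its median stayed below 0 in the 10 other settings tried, from -0.113 to -0.0248, and the separation was not tested. Heat shock genes were higher for 10 of 15 (median 0.12), among them Hsp90aa1, an inducible chaperone, with 433, 458 and 409 and then 539, 663 and 668, without overlap (0.52 ± 0.17). Of 20 immediate early genes 9 were higher (median -0.01), and Nr4a1, an orphan nuclear receptor, had 64.0, 35.2 and 86.3 and then 113, 94.4 and 137 (0.97 ± 0.33). Apoptosis genes were higher for 13 of 19, circadian clock genes for 4 of 10, renin-angiotensin and vasoactive genes for 4 of 10 and steroid and sex-dependent genes for 11 of 17. Acute phase genes were higher for 5 of 13, with a median of -0.23 that became 0.02 without 36-week mouse 3. None of these members was called.

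Markers of other cell types were sparse for lymphocytes. Of 27 T cell markers 5 were measured, and 4 had the higher mean at 42 weeks, which became 2 with signals below 50 raised to 50. The mean of these 5 relative to asymptomatic mice was 0.01 to 0.68 at 36 weeks and 0.31 to 0.80 at 42 weeks. Diseased mice ranged from 0.01 to 0.59, so treated mice lay within or above the diseased range. At 42 weeks 2 of the 5 were called higher than in asymptomatic mice, beside 4.03% of all probe sets tested. Cd247, the zeta chain of the T cell receptor complex, had 24, 29.4 and 34.6 and then 33.3, 45.6 and 57.6 (0.61 ± 0.25), against a geometric mean of 23.1 in asymptomatic mice. Of 11 B and plasma cell markers, which include immunoglobulin genes, 6 were higher at 42 weeks, and Ms4a1, the B cell antigen CD20, had 144, 132 and 166 and then 75.4, 137 and 94.5 (-0.56 ± 0.31), while its other probe set differed by 0.66. Neutrophil markers were higher for 5 of 9, podocyte and glomerular markers for 10 of 13, endothelial markers for 6 of 10, collecting duct markers for 4 of 7, red blood cell markers for 3 of 7 and adrenal and muscle markers for 4 of 11. The summed signal of the red blood cell markers was 3350 to 8360 at 36 weeks and 3560 to 6440 at 42 weeks, and the ages overlapped.

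For the interaction of age and treatment, Klf10, a growth-factor-induced transcription factor, had the smallest p of the named genes. It had 37.6, 50.8 and 51.5 at 36 weeks and 10.6, 11.7 and 10.6 at 42 weeks in treated mice, where the ages did not overlap (-2.08 ± 0.49, adjusted p = 0.395). In diseased mice its geometric mean was 27.9 at 36 and 70.4 at 42 weeks, and the difference of the 2 age effects was -3.41 ± 0.69 (adjusted p = 0.463). Of 23 alternatives, it passed only without diseased mouse 3 of 36 weeks, the adjusted p ranging from 0.0145 to 1. The difference ranged from -3.86 to -0.50, the latter with signals below 50 raised to 50, since its signals at 42 weeks lie far below that floor. The other genes named for the interaction, Nudt5, Tgoln1, Ndufaf1, Col4a1 and Numbl on one side and Ifitm10, Snrnp25, Gldc and Gorasp2 on the other, had adjusted p-values of 0.486 and 0.736.

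Fat cell markers had lower values at 42 weeks as a group. All 10 measured adipocyte markers had the lower mean at 42 weeks, with a median of -0.87 beside 0.01 over all named genes, and 0 were called. Ucp1, the uncoupling protein of brown fat, had 51.9, 86.2 and 52.8 at 36 weeks and 40.9, 14.3 and 5.10 at 42 weeks, without overlap (-2.10 ± 0.74). Thrsp, a lipogenic regulator, had 57.4, 82.7 and 53.6 and then 31.6, 16.5 and 28.5, also without overlap (-1.37 ± 0.64). Adipoq, the fat hormone adiponectin, had 81.1, 136 and 54.0 and then 64.6, 43.7 and 28.4, with overlapping ages. The list's mean relative to asymptomatic mice was -0.74 to 0.26 at 36 weeks and -2.08 to -0.72 at 42 weeks, the lowest being 42-week mouse 3. Its summed signal was 1360 to 2390 at 36 weeks, 1020 to 1670 at 42 weeks, 688 to 1870 in diseased and 2580 to 3370 in asymptomatic mice. Across the 10 other settings tried the median ran from -1.27 to -0.42, and without 42-week mouse 3 it was -0.60. Fat adheres to the kidney surface and to its pelvis. Fasn, which fat cells also express, was lower at 42 weeks along with this list, and the part of attached tissue in its values was not tested.

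Against untreated diseased mice of the same age, treated kidneys differed at many probe sets at both ages. At 36 weeks 217 (2.72%) were called higher and 358 (4.48%) lower in treated mice, and at 42 weeks 307 (3.84%) were higher and 363 (4.54%) lower. Of the lower ones, 192 were called at both ages (53.6% of those at 36 weeks and 52.9% of those at 42 weeks), and of the higher ones 74 (34.1% and 24.1%). Of the 596 probe sets raised in nephritis, 215 were called lower in treated mice at 36 weeks and 222 at 42 weeks, and of the 293 lowered, 55 and 107 were called higher. The diseased mice helped to choose these probe sets, so the counts describe them only. The numbers of calls rested strongly on single mice. At 36 weeks the total of 575 was 378, 352 and 262 without diseased mouse 2, diseased mouse 3 and treated mouse 3. At 42 weeks the total of 670 was 1225 without diseased mouse 2 and 121 without diseased mouse 3. It was 399, 360 and 188 without treated mouse 1, 2 and 3.

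The gene lists were written with earlier results of these data known. Over all probe sets tested, 4.48% at 36 weeks and 4.54% at 42 weeks were called lower in treated mice. By list, complement genes were called lower in treated mice for 9 of 15 at 36 weeks and 7 at 42 weeks. Class II genes were called lower for 9 and 8 of 11, macrophage markers for 15 and 13 of 22, and tubular injury genes for 10 and 13 of 23. Leaving out 1 mouse gave as few as 4, 7, 11 and 7 at 36 weeks, the 4 arising without diseased mouse 1, diseased mouse 2 or treated mouse 1. Without diseased mouse 3 of 42 weeks, the 42-week counts were 3, 6, 6 and 4. With the array identifier as a block they were 4, 6, 5 and 3 at 36 weeks and 4, 6, 8 and 4 at 42 weeks, and with the replicate number as a block 4, 7, 7 and 3 and then 1, 3, 1 and 1. H2-DMa differed from diseased mice by -3.15 ± 0.31 at 36 weeks (adjusted p = 0.000149) and by -2.72 ± 0.31 at 42 weeks (adjusted p = 0.000875). Lcn2 differed by -5.22 ± 0.95 and -6.13 ± 0.95 (adjusted p = 0.00639 and 0.00331). C3 differed by -2.94 ± 0.45 and -3.69 ± 0.45 (adjusted p = 0.00225 and 0.00115). Proximal tubule genes were called higher for 6 of 27 at 36 weeks and 16 at 42 weeks, beside 2.72% and 3.84% of all tested. Leaving out 1 mouse moved these counts between 2 and 7 and between 2 and 20. They became 2 and 0 with the array identifier as a block and 1 and 0 with the replicate number as a block, so no call at 42 weeks held under either, and whether the ages differ in them was not tested beyond the interaction above. Hpd was higher by 4.17 ± 0.89 and 3.54 ± 0.89 (adjusted p = 0.0141 and 0.0288), and Bhmt by 3.55 ± 0.55 and 2.88 ± 0.55 (adjusted p = 0.00255 and 0.0105). Nephritis genes such as Lcn2, C3, Hpd and Bhmt were chosen with these same diseased mice, so their p-values here describe them only. Zfp936, a zinc finger protein, was called higher at 36 weeks (2.12 ± 0.49, adjusted p = 0.021) although it is not among the lowered nephritis genes, with 96.7, 28.5 and 58.4 at 36 weeks and 13.9, 44.0 and 14.6 at 42 weeks.

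Against asymptomatic mice, treated kidneys still differed. At 36 weeks 208 probe sets (2.6%) were called higher and 127 (1.59%) lower, and at 42 weeks 322 (4.03%) were higher and 168 (2.1%) lower. Of the nephritis probe sets, 30 of the 596 raised and 27 of the 293 lowered ones were among those called in the disease direction at 36 weeks, and 56 and 34 at 42 weeks. The 2 comparisons share the asymptomatic mice, which were labelled 12 weeks of age, so age and treatment cannot be told apart in them. Those arrays also lie in blocks of identifiers of their own, so group and block cannot be told apart either. Leaving out 1 mouse moved both totals by over 1.5 times. At 36 weeks the 335 became 144, 65, 94 and 169 without asymptomatic mouse 1, 2, 3 and 4, and 69 and 76 without treated mouse 1 and 3. At 42 weeks the 490 became 312, 136, 204 and 217 without asymptomatic mouse 1, 2, 3 and 4, and 176, 203 and 255 without treated mouse 1, 2 and 3.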

How the data were processed

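Signal intensities deposited by the authors were computed with MAS5 and scaled per array, per the labels and the file values, with no further normalization. No depth applies to arrays, so the number of mice limits precision. Both value tables were stacked, log2 transformed, and control probe sets were removed, leaving 13057, and the 7989 that reached a signal of 50 in any of the 16 mice were tested. Of the 13057, 7633 had 1 gene symbol, including 91 named from a supplementary list of the study, 224 had several and 5200 had none. The probe set with the highest mean stood for its gene. limma 3.58.1 in R 4.3.3 fitted 5 groups with 7 contrasts. The study's methods used analysis of variance on pooled ages, which was run per age as an alternative.

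The named genes were, for 42 against 36 weeks, up to 10 a direction by fold among called genes, filled by the smallest p among genes whose ages did not overlap and whose mean signal reached 50 in 1 age. For the interaction and the comparisons with diseased mice they were up to 5 a direction. The 10 largest nephritis rises and falls, up to 4 members of each gene list by test statistic, genes the study's text names and 3 immunoglobulins were added. Members, lists and tests were chosen with earlier results of these data known. The spread of gene lists over scalings, blocks and left-out mice, and values within array blocks, were added after seeing the data. The model was tested on simulated data.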

Additional observations from a re-analysis of the deposited data

Results flagged for a closer look

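In 1 of the 4 asymptomatic mice, mouse 1, the 364 tested probe sets with identifiers beginning ET6 had a mean log2 difference of 0.34 from the asymptomatic mean, while the other mice had -0.15, -0.10 and -0.09. The gap to the nearest of the others was 0.881 of the group's whole range, past the limit of Dixon's test for 4 values. Chance alone puts about 1 in 20 groups past that limit, and 5 scores were examined. The percentages of disease change in treated mice are measured from a baseline that includes this mouse.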

How the results depend on the processing

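For 42 against 36 weeks in treated mice, 10 of 11 alternatives called 0 probe sets, and raising signals below 50 to 50 called 3 (Fasn and a pair without a gene name); leaving out 1 mouse gave 0 to 1. That floor called 1 for the interaction, where leaving out 1 mouse gave 0 to 1. In diseased mice leaving out 1 mouse gave 0 to 34. Counts against diseased mice were smaller under several settings. From 575 at 36 weeks they became 22 with the methods' analysis of variance, 176 with the compared groups only, 328 with no filter on low signals and 108 with the array identifier as a block. From 670 at 42 weeks they became 2, 4, 361 and 97 under the same settings. Against asymptomatic mice the 490 at 42 weeks became 320 with the analysis of variance and 869 with no filter. With the replicate number as a block, the counts were 104 and 40 against diseased and 51 and 43 against asymptomatic mice at 36 and 42 weeks. Same-numbered treated mice correlated at 0.15, -0.0355 and 0.109 between ages, values that cannot show whether equal numbers stand for a shared cage or litter. Leaving out 1 mouse gave 262 to 507 and 121 to 1225 against diseased mice, and 65 to 278 and 136 to 312 against asymptomatic mice. The lowered nephritis probe sets at 42 weeks stood at 43.5% with quantile normalization, and the raised ones at 17.3% with signals below 50 raised to 50. Among the genes named for each comparison no called value changed direction, which was not examined for other called probe sets, and the causes of these shifts were not tested. Of 680 values of the genes named for age or nephritis, 36 changed sign, in 16 genes, none of them called. MAS5 gives no error per signal, and low signals vary most.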
